A study of Mus musculus with 6 samples.

Results

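Toll-like receptors, the co-receptor Ly96, the adaptors Myd88 and Ticam1 and the inhibitor Irak3 were followed in endothelial cells (ECs) sorted from metastatic mouse lungs. Macrophages were either targeted by clodronate-liposomes or left in place. The 10 genes were Tlr1, Tlr2, Tlr3, Tlr4, Tlr7, Tlr9, Ly96, Myd88, Ticam1 and Irak3. They were taken as a named family, and every probe set annotated to 1 of these symbols alone was included, giving 17 of 45037 probe sets and 10 of 18193 genes. ECs came from NSG mice, aged 6 to 8 weeks when injected, immunodeficient animals that lack lymphocytes but still have macrophages and neutrophils. All animals carried lung metastases seeded by MDA-MB-231-LM2, human breast cancer cells of a lung-tropic subline. Clodronate-liposomes, which kill the phagocytes that take them up, or PBS-liposomes as control were injected on days 14, 16 and 18 after the tumor cells, and lungs were taken on day 20. Each group held 3 arrays of CD31-positive cells, sorted after cells with leukocyte, epithelial, stromal and tumor markers had been gated out. The labels call the replicates biological without giving the number of mice behind each.

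Toll-like receptors recognize microbial molecules and molecules released from damaged tissue. Tlr4, with its co-receptor MD-2 (encoded by Ly96), senses lipopolysaccharide at the cell surface, Tlr2 pairs with Tlr1 to sense lipopeptides, and Tlr3, Tlr7 and Tlr9 sense nucleic acids in endosomes. Most of these receptors signal through the adaptor MyD88 to NF-kB, whereas Tlr3 signals through TRIF (encoded by Ticam1) to interferon genes and Tlr4 uses both adaptors. Irak3 encodes IRAK-M, a kinase relative without strong kinase activity that restrains signaling below MyD88. In the lung these receptors are best known from macrophages, and ECs are also known to carry Tlr4. The comparison asks which transcripts of ECs in the metastatic lung depend on macrophages.

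The adaptor Myd88 was lower in ECs of clodronate-liposome-treated mice, while none of the receptors differed past the threshold. It fell 1.59-fold (95% confidence interval 1.38 to 1.83) and was the only member probe set called. Ticam1 and Irak3 differed by -0.54 and -0.42 on the log2 scale without reaching the threshold for their brightest probe sets, in which, as in Myd88, the groups did not overlap. By the brightest probe set of each gene, the 7 receptor and co-receptor genes had differences between -0.17 and 0.12. These are log2 signals made by robust multiarray averaging, and differences are clodronate-liposome minus PBS-liposome from limma with p values adjusted over all 45037 probe sets. Levels of different probe sets cannot be compared, so each gene is set only against itself.

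**Figure D1:**
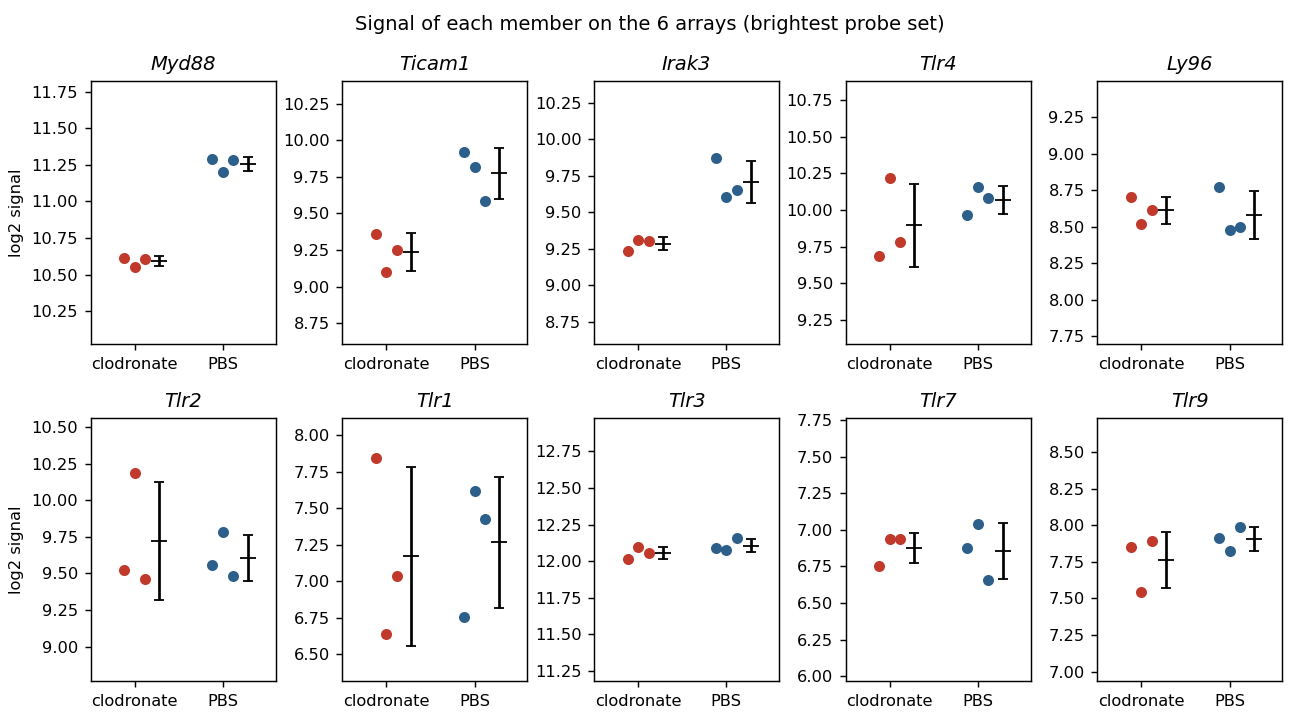
Log2 signal (vertical axis, each panel spanning the same range of 1.8) of the brightest probe set of each member on 3 clodronate-liposome arrays (red, left) and 3 PBS-liposome arrays (blue, right), with dots for arrays and black marks for the mean ± SD. Myd88, Ticam1 and Irak3 lie lower on every clodronate-liposome array, and the groups overlap for the other 7 genes.

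Of the 17 probe sets, 1 was lower and 0 were higher at an adjusted p of 0.05, against 0.238% of all probe sets lower and 0.0688% higher in the same limma fit. At an unadjusted p of 0.05, 4 were lower and 0 higher, where 5.27% and 5.53% of all probe sets were. The groups did not overlap in 4 probe sets, all lower, against 8.04% of all probe sets lower and 7.97% higher. The 4 are those of Myd88 and Ticam1, the brighter one of Irak3 and the dimmest one of Tlr7. The median difference over the 10 genes was -0.12, against -0.0031 over all 18193 genes. The members were chosen with earlier results of these data known, so the shares over all probe sets are given for scale only.

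Myd88, the shared adaptor of most Toll-like receptors and of the interleukin-1 receptor, read 10.62, 10.55 and 10.60 in clodronate-liposome replicates 1, 2 and 3, and 11.29, 11.20 and 11.28 in PBS-liposome replicates 1, 2 and 3 (log2 signal). The highest clodronate-liposome array lay 0.58 below the lowest PBS-liposome array. The means were 10.59 ± 0.034 for clodronate-liposomes and 11.26 ± 0.050 for PBS-liposomes (SD, n = 3 each), and the log2 difference was -0.67 (SE 0.089, 95% confidence interval -0.87 to -0.46, limma adjusted p = 0.0343). Its size changed little when any 1 array was left out, -0.69 to -0.65. The call itself was lost each time, with limma adjusted p = 0.106, 0.0805 and 0.139 without clodronate-liposome replicates 1, 2 and 3 and 0.126, 0.133 and 0.145 without PBS-liposome replicates 1, 2 and 3. It was also lost with the replicate number as a block (adjusted p = 0.101) and with hybridization controls as a covariate (0.174), where the difference was -0.71. Over all probe sets, leaving out 1 array cut the calls from 138 to between 6 and 73.

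The start of Myd88 is shown because it is the member that passed the threshold. The 300 bases (RefSeq, GRCm38.p6, chr9:119339969-119340268, minus strand, 250 bases before the start of the transcript and 50 after it) carry in capitals the matches to the motifs searched on both strands. Those were the core of the interferon-stimulated response element (GAAANNGAA), the gamma-activated site bound by STAT proteins (TTCNNNGAA), an NF-kB-like motif (GGNNTTTCC) and a motif of the myeloid factor PU.1 (GAGGAAG).
Myd88: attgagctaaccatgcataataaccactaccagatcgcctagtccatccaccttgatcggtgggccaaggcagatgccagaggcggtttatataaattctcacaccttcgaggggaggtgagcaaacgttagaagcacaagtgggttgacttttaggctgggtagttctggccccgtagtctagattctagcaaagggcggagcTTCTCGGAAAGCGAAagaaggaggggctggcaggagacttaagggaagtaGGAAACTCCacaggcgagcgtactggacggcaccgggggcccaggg
The first capitals hold a gamma-activated site at 46 to 38 bases before the start and an interferon response core at 40 to 32 bases before it, which overlap. The last capitals hold the NF-kB-like motif on the opposite strand, at bases 5 to 13 of the transcript. Of all 32851 promoter windows in the table, 8.56% hold the interferon response core, 8.30% the gamma-activated site, 5.82% the NF-kB-like motif and 13.6% the PU.1 motif. Matches describe letters only and show no binding.

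Ticam1, the adaptor that links Tlr3 and Tlr4 to interferon induction, read 9.36, 9.10 and 9.25 on the clodronate-liposome arrays and 9.92, 9.82 and 9.58 on the PBS-liposome arrays, in the order of replicates 1, 2 and 3. The groups lay 0.22 apart at their nearest arrays. The log2 difference was -0.54 (SE 0.12, 95% confidence interval -0.83 to -0.25), 1.45-fold lower, with limma adjusted p = 0.160. Across the 16 alternative settings it stayed between -0.68 and -0.46 and was called in 0 of them. Ticam1 is read by a probe set whose name ends in s, which marks probes shared by several transcripts. The promoter window of Ticam1 had 1 match, to the PU.1 motif at 30 to 24 bases before the start.

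Irak3, the inhibitor, had both of its probe sets lower on average. The brighter one read 9.24, 9.31 and 9.31 on the clodronate-liposome arrays and 9.87, 9.60 and 9.65 on the PBS-liposome arrays, with a gap of 0.29 between the groups. Its difference was -0.42 (SE 0.11, 95% confidence interval -0.67 to -0.18, limma adjusted p = 0.185), 1.34-fold lower, and 0 of 16 alternative settings called it. The dimmer one read 8.75, 9.14 and 9.39 on the clodronate-liposome arrays and 9.30, 9.42 and 9.49 on the PBS-liposome arrays. These overlap, since clodronate-liposome replicate 3 lies above PBS-liposome replicate 1, and the difference was -0.31 (SE 0.16, adjusted p = 0.556).

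Irak3 and Myd88 were the 2 members, of 7 with a window in the table, with a match to the interferon response core. RefSeq gives 2 starts for Irak3. The window of the upstream one is shown for comparison with Myd88 (GRCm38.p6, chr10:120202081-120202380, minus strand), with its match on the opposite strand in capitals, at 102 to 94 bases before the start.
Irak3: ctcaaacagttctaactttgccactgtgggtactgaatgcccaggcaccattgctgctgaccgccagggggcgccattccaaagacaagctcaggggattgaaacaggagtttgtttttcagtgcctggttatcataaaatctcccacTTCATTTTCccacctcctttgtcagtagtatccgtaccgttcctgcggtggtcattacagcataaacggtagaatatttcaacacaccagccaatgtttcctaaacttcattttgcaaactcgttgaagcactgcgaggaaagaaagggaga
The window of the other Irak3 start had no match to any of the 4 motifs. The 7 members had 9 windows. Windows of Tlr1 held a PU.1 motif and a gamma-activated site, 1 in each, that of Tlr3 an NF-kB-like motif, that of Tlr9 a PU.1 motif at 2 places and that of Tlr2 none.

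Tlr4, the lipopolysaccharide receptor, was read by 4 probe sets, none past the threshold. The brightest read 9.69, 10.22 and 9.78 in clodronate-liposome replicates 1, 2 and 3, and 9.97, 10.16 and 10.08 in PBS-liposome replicates 1, 2 and 3. Clodronate-liposome replicate 2 was the highest of all 6 arrays and the other two of its group the lowest, so the groups overlap. The difference was -0.17 (SE 0.15, 95% confidence interval -0.52 to 0.17, limma adjusted p = 0.759), and it was 0.060 with hybridization controls as a covariate. Without clodronate-liposome replicate 2 it was -0.34 (limma adjusted p = 0.273, unadjusted p = 0.0186), and it stayed below 0 without any 1 array (-0.34 to -0.070). The other probe sets differed by -0.22, -0.28 and 0.15, with limma adjusted p from 0.605 to 0.748. The next brightest read 9.72, 9.47 and 9.55 on the clodronate-liposome arrays and 9.58, 9.90 and 9.93 on the PBS-liposome arrays. In that probe set clodronate-liposome replicate 2 was the lowest of all 6 arrays. Ly96, which makes the MD-2 part of the same receptor complex, averaged 8.61 ± 0.092 on clodronate-liposome arrays and 8.58 ± 0.16 on PBS-liposome arrays, with a difference of 0.03 (SE 0.12, 95% confidence interval -0.24 to 0.30).

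Tlr2 and Tlr1, partners in lipopeptide sensing, varied most between arrays of the same group. Tlr2 read 9.52, 10.19 and 9.46 on the clodronate-liposome arrays and 9.56, 9.78 and 9.48 on the PBS-liposome arrays. Clodronate-liposome replicate 2 was again the highest of all 6, as for the brightest Tlr4 probe set but not the next brightest. The Tlr2 difference of 0.12 (SE 0.20, limma adjusted p = 0.895) was -0.12 without that array, and 0.46 with hybridization controls as a covariate (adjusted p = 0.268, unadjusted p = 0.00459). Tlr1 read 7.84, 6.64 and 7.04 on the clodronate-liposome arrays and 6.76, 7.61 and 7.42 on the PBS-liposome arrays. Its difference was -0.09 with a 95% confidence interval of -0.84 to 0.65, the widest of the 10 genes, so a change of the size seen in Myd88 was not detectable for Tlr1.

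Among the nucleic acid receptors, Tlr3 was the most evenly measured. Its brightest probe set, like that of Ticam1, has a name ending in s. This receptor of double-stranded RNA read 12.01, 12.10 and 12.05 on the clodronate-liposome arrays and 12.09, 12.07 and 12.16 on the PBS-liposome arrays. All 6 values lay within 0.15 of each other, and the difference was -0.05 (SE 0.089, 95% confidence interval -0.26 to 0.15, limma adjusted p = 0.895). Its second probe set differed by 0.01 (SE 0.13). The interval of Myd88 lies wholly below that of Tlr3, although the difference between the genes was not tested.

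Tlr7 and Tlr9, receptors of single-stranded RNA and of unmethylated CpG DNA, were read by dim probe sets. All 3 of Tlr7 and the 1 of Tlr9 lay below the median signal of the array, as did that of Tlr1 and the 2 dimmest of Tlr4. The brightest probe set of Tlr7 averaged 6.88 ± 0.11 on clodronate-liposome arrays and 6.86 ± 0.19 on PBS-liposome arrays, a difference of 0.02 (SE 0.12), and the next differed by 0.10. The dimmest read 6.38, 6.39 and 6.24 on the clodronate-liposome arrays and 6.49, 6.63 and 6.67 on the PBS-liposome arrays, a difference of -0.26 with no overlap (limma adjusted p = 0.403). Its name ends in x, the mark of probes that can bind other transcripts too, and the other two Tlr7 probe sets did not share its direction. Tlr9 differed by -0.15 (SE 0.12, 95% confidence interval -0.43 to 0.13).

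**Figure D2:**
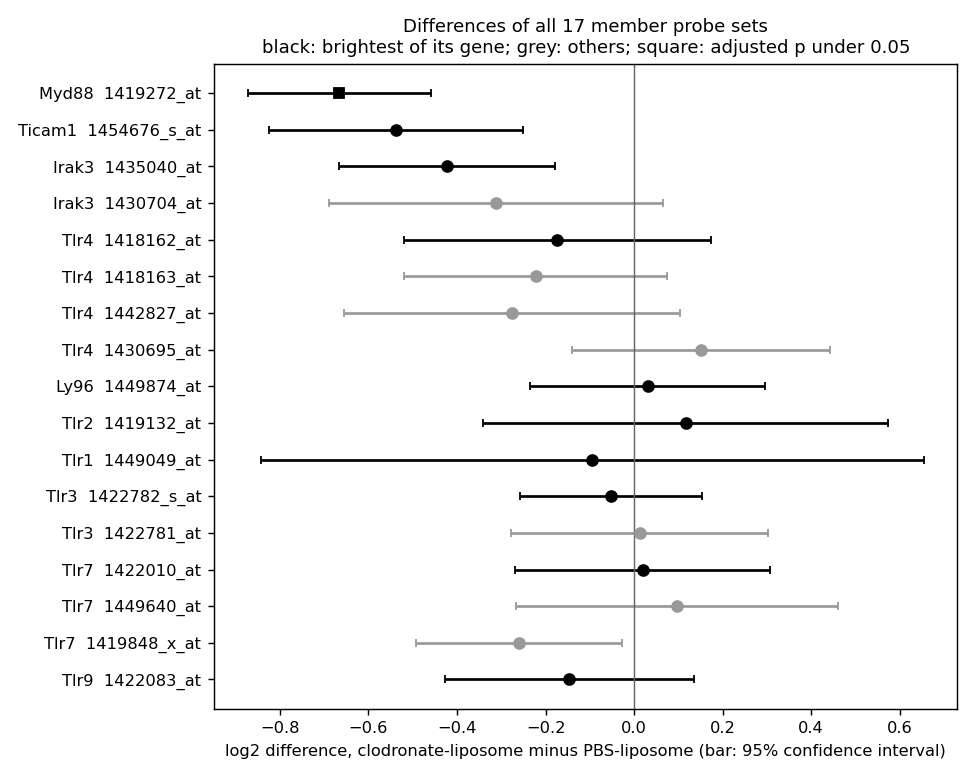
Log2 difference, clodronate-liposome minus PBS-liposome (horizontal axis), of the 17 member probe sets with 95% confidence intervals, black for the brightest probe set of each gene and grey for others. Myd88 at -0.67 is the only square, the mark of an adjusted p under 0.05, and the intervals of Ticam1, the brighter Irak3 probe set and the x probe set of Tlr7 also lie below 0.

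Of 41 other genes of the pathway, 35 were measured, and 2 of them fell and 0 rose at an adjusted p of 0.05. By brightest probe sets 0.346% of all genes were lower and 0.0879% higher in this limma fit, and at an unadjusted p of 0.05 the same 2 of the 35 were lower and 0 higher, where 5.49% and 4.54% of all genes were. The median difference of the 35 was -0.04. This list too was chosen with earlier results of these data known. Irf7, the transcription factor below MyD88 that drives type I interferon genes, read 9.53, 9.85 and 10.11 on the clodronate-liposome arrays and 11.97, 11.73 and 12.07 on the PBS-liposome arrays. The groups lay far apart, with a difference of -2.10 (SE 0.16, adjusted p = 0.00687), the largest among the 35. It kept its call without any 1 array (adjusted p = 0.0190 to 0.0480) and lost it with the replicate block (0.0507) and with hybridization controls as a covariate (0.113).

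Lbp, the lipopolysaccharide-binding protein that hands its ligand on toward Tlr4 and MD-2, read 11.26, 11.40 and 11.40 on the clodronate-liposome arrays and 11.98, 12.04 and 12.13 on the PBS-liposome arrays. These lay 0.58 apart at their nearest arrays. Lbp fell by 0.70 (SE 0.097, limma adjusted p = 0.0374), 1.62-fold lower. As for Myd88, leaving out any 1 of the 6 arrays ended the call, with adjusted p from 0.0785 to 0.153 and differences from -0.73 to -0.65, and so did the replicate block (0.0943) and the covariate (0.206). Its dimmer probe set differed by -0.17 (adjusted p = 0.794), with the groups overlapping, and the mean of both differed by -0.43 (adjusted p = 0.0968).

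Kinases and inhibitors of the pathway lay close to 0. The 15 kinases, ligases and factors measured had a median of -0.07, and Irf7 was the 1 called. The next smallest p values of the pathway list belonged to Tab3 (-0.26), an adaptor of the kinase TAK1, Tnc (-0.44), TAK1 itself (Map3k7, -0.20) and Ikbke (-0.21), a kinase of interferon induction, all with adjusted p from 0.537 to 0.582. Other probe sets of Map3k7 differed by -0.41 to 0.26. Tnc encodes tenascin C, a matrix protein known as a ligand of Tlr4. It read 7.82, 8.18 and 7.98 on the clodronate-liposome arrays and 7.95, 8.48 and 8.86 on the PBS-liposome arrays, which overlap. The dimmer Tnc probe set differed by -0.16 (limma adjusted p = 0.803), with the groups overlapping. The 4 inhibitors Sigirr, Tollip, Sarm1 and Tnfaip3 lay between -0.09 and 0.03. Irak3, at -0.42, was not called either, and the difference between these genes was not tested. Of the other receptors and accessory proteins, Tlr5, Tlr6, Tlr8, Tlr12 and Tlr13 were measured with 0 past the threshold.

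**Figure D3:**
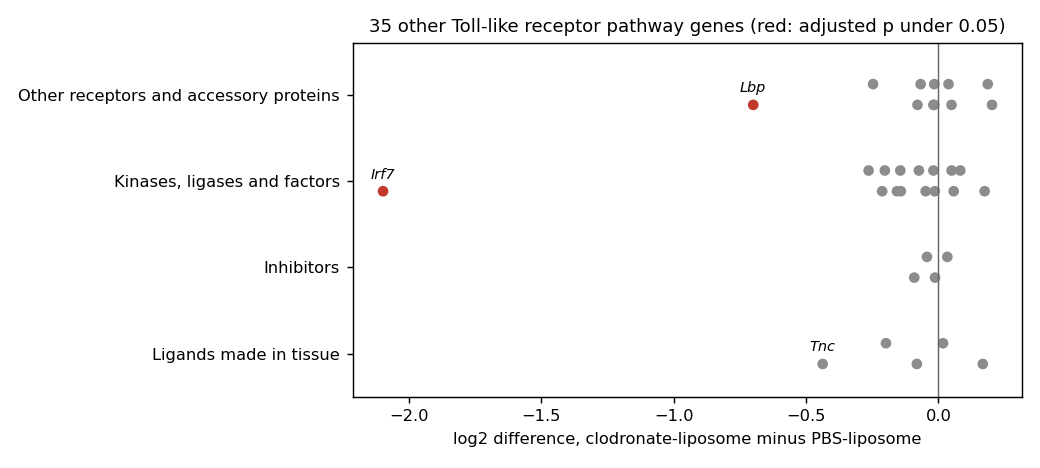
Log2 difference, clodronate-liposome minus PBS-liposome (horizontal axis), of 35 other pathway genes in 4 groups by role, each dot the brightest probe set of a gene and red dots those with adjusted p under 0.05. Irf7 at -2.10 and Lbp at -0.70 are red, and Tnc lies at -0.44.

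The genes whose values moved most like those of Myd88 over the 6 arrays were Rasa4, Il1b and Parp14. Likeness was the root mean square distance between log2 values centred on the mean of each gene, and it was 0.052 for Rasa4, 0.062 for Il1b and 0.064 for Parp14. Rasa4, a GTPase-activating protein for Ras, differed by -0.69 (limma adjusted p = 0.0314), Il1b, the cytokine interleukin-1 beta, by -0.66 (0.0499), and Parp14, an ADP-ribosyltransferase, by -0.59 (0.0751). Each had no overlap between the groups, which a gene this close to Myd88 must have.

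Mean signals of endothelial markers overlapped between the groups, while some leukocyte, platelet and mural transcripts were lower on every clodronate-liposome array. The mean signal of 9 endothelial markers was 13.10 to 13.33 on clodronate-liposome arrays and 13.12 to 13.22 on PBS-liposome arrays. That of 12 macrophage markers was 7.92 to 8.22 on clodronate-liposome arrays and 8.21 to 8.54 on PBS-liposome arrays. Of the 12, 10 were lower on average, 4 without overlap (Csf1r, Cybb, Fcer1g and Cd68). By limma 0 were called and 3 had an unadjusted p under 0.05. Over all 18193 genes, 1591 were lower and 1362 higher without overlap. Cybb, a subunit of the phagocyte oxidase, read 7.31, 7.78 and 7.87 on the clodronate-liposome arrays and 8.43, 8.69 and 9.01 on the PBS-liposome arrays. Adgre1, which encodes a surface antigen of mouse macrophages, read 7.16, 7.30 and 7.14 on the clodronate-liposome arrays and 7.31, 6.94 and 7.85 on the PBS-liposome arrays, which overlap. The mean of 5 pan-leukocyte markers was 7.68 to 7.95 on clodronate-liposome arrays and 8.00 to 8.51 on PBS-liposome arrays. All 5 were lower on average, 3 without overlap (Ptprc, Coro1a and Itgb2). By limma 0 were called and 3 had an unadjusted p under 0.05. That of 4 neutrophil markers was 7.73 to 8.14 on clodronate-liposome arrays and 7.78 to 8.03 on PBS-liposome arrays, with 3 higher on average. Of 3 plasmacytoid dendritic cell markers, Bst2 was lower (-0.51) and Siglech higher (0.20), each without overlap, and Ccr9 (-0.22) overlapped. The mean of 3 platelet markers was 8.996 to 9.60 on clodronate-liposome arrays and 9.41 to 9.70 on PBS-liposome arrays. Itga2b (-0.56) and Ppbp (-0.44) had no overlap, while Pf4 was higher on average (0.13) with the groups overlapping. The mean of 4 fibroblast and mural markers was 9.64 to 10.18 on clodronate-liposome arrays and 9.92 to 10.19 on PBS-liposome arrays, all 4 lower on average and Pdgfrb (-0.27) without overlap. That of 4 epithelial markers was 7.504 to 8.83 on clodronate-liposome arrays and 8.08 to 8.33 on PBS-liposome arrays. Their part in the lower values of Myd88, Ticam1 and Irak3 was not tested, and in such bulk samples fewer cells of a type and less RNA per cell cannot be told apart.

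Clodronate-liposome replicate 2, the highest array for Tlr2 and the brightest Tlr4 probe set, also had the highest mean of macrophage markers in its group, 8.22, beside 7.92 and 8.08 in replicates 1 and 3. Of the 12 markers, 7 were highest and 3 lowest there among the clodronate-liposome arrays. The mean of 4 epithelial markers was also highest there, 8.83, beside 7.504 and 8.37 in replicates 1 and 3. Sftpc, a surfactant protein gene of alveolar epithelium, read 12.78 there, beside 8.49 and 11.47. The pan-leukocyte mean was highest there too, 7.95, beside 7.68 and 7.85. The endothelial mean was lowest there, 13.10, beside 13.33 and 13.24, with 7 of the 9 markers lowest. The neutrophil mean was also lowest there, 7.73, beside 8.14 and 7.88, as was the fibroblast and mural mean, 9.64, beside 10.18 and 9.78. Hybridization controls, RNAs added to check the arrays, read 11.71, 12.01 and 11.71 on the clodronate-liposome arrays and 11.91, 12.06 and 11.93 on the PBS-liposome arrays. The part of these cell type markers in the values of Tlr2 and Tlr4 was not tested.

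**Figure D4:**
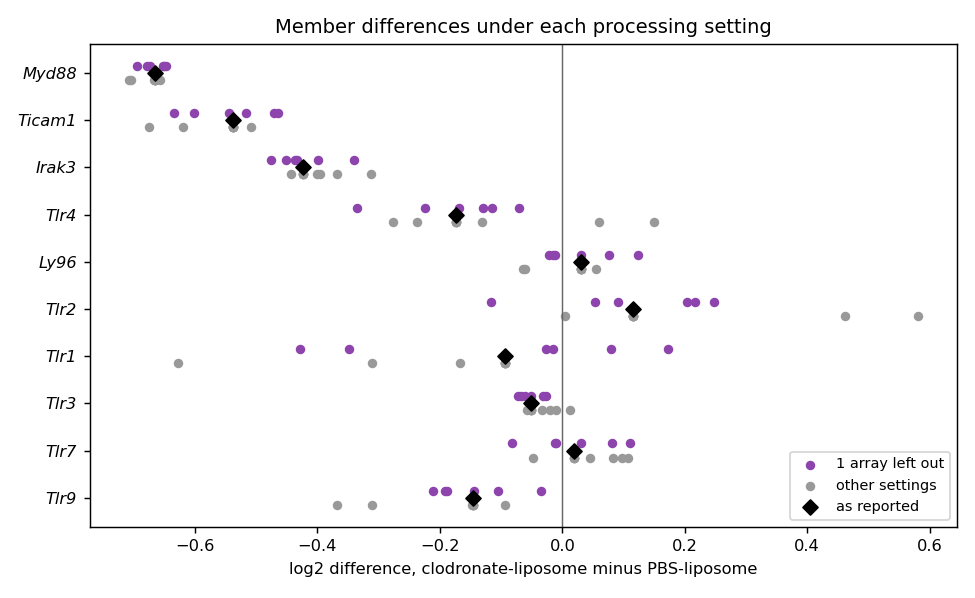
Log2 difference, clodronate-liposome minus PBS-liposome (horizontal axis), of each member as reported (black), with 1 array left out (purple) and under the other settings (grey). Myd88, Ticam1, Irak3 and Tlr9 stay below 0 in every setting run, whereas Tlr1, Tlr2, Tlr3, Tlr4, Tlr7 and Ly96 have values on both sides of 0.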

How the data were processed

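RNA of sorted lung ECs was measured on Affymetrix 3' expression arrays of the mouse genome, 1 per sample, and the labelled liposome treatment gave the groups. The deposited values are log2 signals that the authors made from scanner files by robust multiarray averaging (Chipster). That procedure subtracts background, equalizes the distributions of the arrays and summarizes the probes of a probe set, so a change shared by most genes would not be seen. Of 45101 probe sets, 64 manufacturer controls were set aside and 45037 were tested unfiltered. Symbols came from the platform annotation, and all 10 members matched RefSeq by gene identifier. Each of 18193 genes was represented by its brightest probe set, the one with the highest mean over 6 arrays.

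Differences were fitted with limma 3.58.1 in R 4.3.3 (lmFit, eBayes, two-sided, no covariate), as the empirical Bayes comparison in the study's methods, with Benjamini-Hochberg adjustment over 45037 probe sets and a threshold of 0.05. Residual degrees of freedom were 4 and prior ones 3.90, and precision is limited by 3 arrays per group. The steps were tested on simulated data. Members, lists, motifs and rules were chosen with earlier results of these data known. The rule named all members, the pathway genes past the threshold, the 4 next by p, Tnc, and the 3 genes nearest to Myd88. The Irak3 promoter window and the values of Tirap were added after values were seen. Pathway genes with no probe set of their own in the annotation were not analysed here.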

Additional observations from a re-analysis of the deposited data

How the results depend on the processing

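Myd88, Ticam1, Irak3, Irf7 and Lbp were lower in each of the 16 alternatives run. Of the settings that kept all arrays, 7 called Myd88, and none of the 6 that left out 1 array did. Some of the 7 could hardly differ from the reported fit. All arrays share a median of 8.13, so median centring changed nothing, and Myd88 has only 1 probe set to choose. Equalizing the distributions of the arrays a second time left its limma adjusted p at 0.0341. The count of probe sets past the threshold, 138 as reported, was 244 with low signals filtered, 248 with a trended robust variance, 234 with array weights, 2 with hybridization controls as a covariate, 0 with the replicate block and 0 with replicate 2 as the only clodronate-liposome array. The last setting was added after the data had been seen, and with 1 array in a group the spread comes from the PBS-liposome arrays alone, so its lost calls say little of stability. For those zeros limma gave 5033 and 3964 at an unadjusted p of 0.05. Leaving out 1 array gave 6 to 73. The member count, 1 as reported, was 0 with the covariate, 0 with the replicate block, 0 to 0 with 1 array left out and 0 with replicate 2 alone. The cause was not tested. Replicate numbers pair no samples by the labels, and the deviations of same-numbered arrays correlated by 0.036 to 0.075.

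The small differences of receptors changed sign in some settings. With 1 array left out the range was -0.43 to 0.17 for Tlr1, -0.12 to 0.25 for Tlr2, -0.082 to 0.11 for Tlr7 and -0.022 to 0.12 for Ly96. Tlr3 was 0.013 by its most variable probe set and Tlr7 -0.048 as the mean of its probe sets. With the covariate Tlr4 was 0.060 and Ly96 -0.064, and with replicate 2 alone 0.15 and -0.061. The covariate and replicate 2 alone gave 0.46 and 0.58 for Tlr2 and -0.31 and -0.63 for Tlr1. Tlr1, Tlr7 and Tlr9 lay under the signal filter and have no value there.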
